A study of Homo sapiens with 21 samples.

Results

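The accessible chromatin of Control SK-N-BE(2) cells was described from the 3 Control libraries among the 21 ATAC-seq libraries of the study. ATAC-seq uses the Tn5 enzyme, which cuts and tags DNA where it is not packed, and a site that is more accessible yields more reads. SK-N-BE(2) is an established human neuroblastoma line, derived from a bone marrow metastasis and carrying an amplified MYCN gene. Control cells had received lentiviral particles with a non-silencing shRNA and were collected 72 h later, as biological triplicates. The other 6 groups, all with shRNAs against ARID1A, ARID1B or both, were not analysed here. The values describe 1 transduced cell line, and untransduced cells were not analysed here. Described are all 367900 sites of the deposited set, which is the same for all 7 groups and was therefore not chosen on Control cells alone.

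Neuroblastoma arises from neural crest cells on their way to the sympathetic nervous system and the adrenal medulla. Most neuroblastoma cells hold an adrenergic identity, kept by a circuit of transcription factors such as HAND2, GATA3 and ISL1 that bind each other's enhancers. A second, mesenchymal identity rests on factors such as PRRX1 and the AP-1 and YAP families. Open sites at gene starts are shared by many cell types, whereas open sites far from gene starts, which include enhancers, differ more between cell types.

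The sequences below are the central 300 bases of the strongest distal site of 4 adrenergic genes, and of the strongest distal site of the block around MYCN described further on, to show the letters in the regions that the values refer to. They were read from the hg38 reference on the plus strand, and the centre of a site need not be its point of highest accessibility. Capitals mark letters searched on either strand. For zinc finger factors such as GATA3 these were AGATAA. For basic helix-loop-helix factors of the HAND kind they were CATCTG, an E-box, and for MYC factors the E-box CACGTG. For homeobox factors of the PHOX2 kind they were AATNNAATT, for AP-1 factors TGANTCA and for AP-2 factors GCCNNNGGC. Except for HAND2, the site is the strongest one listed for the gene by nearest gene.
HAND2, chr4:173522198-173522497: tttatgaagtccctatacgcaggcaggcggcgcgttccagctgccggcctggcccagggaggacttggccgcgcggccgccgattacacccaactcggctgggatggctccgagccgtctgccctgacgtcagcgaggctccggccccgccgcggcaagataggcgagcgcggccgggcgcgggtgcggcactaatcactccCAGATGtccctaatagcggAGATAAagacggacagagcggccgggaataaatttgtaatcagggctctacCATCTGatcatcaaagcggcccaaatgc
GATA3, chr10:8047965-8048264: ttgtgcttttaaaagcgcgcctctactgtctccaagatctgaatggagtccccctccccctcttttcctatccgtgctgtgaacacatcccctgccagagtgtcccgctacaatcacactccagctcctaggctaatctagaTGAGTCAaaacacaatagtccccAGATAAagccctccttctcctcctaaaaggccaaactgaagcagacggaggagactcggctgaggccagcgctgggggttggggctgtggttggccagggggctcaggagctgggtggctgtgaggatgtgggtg
ISL1, chr5:51377850-51378149: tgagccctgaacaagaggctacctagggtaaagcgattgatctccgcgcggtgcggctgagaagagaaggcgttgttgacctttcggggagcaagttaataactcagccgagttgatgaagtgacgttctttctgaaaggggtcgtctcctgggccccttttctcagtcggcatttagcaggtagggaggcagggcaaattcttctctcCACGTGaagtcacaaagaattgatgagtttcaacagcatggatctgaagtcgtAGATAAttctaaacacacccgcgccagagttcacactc
MYCN, chr2:15843090-15843389: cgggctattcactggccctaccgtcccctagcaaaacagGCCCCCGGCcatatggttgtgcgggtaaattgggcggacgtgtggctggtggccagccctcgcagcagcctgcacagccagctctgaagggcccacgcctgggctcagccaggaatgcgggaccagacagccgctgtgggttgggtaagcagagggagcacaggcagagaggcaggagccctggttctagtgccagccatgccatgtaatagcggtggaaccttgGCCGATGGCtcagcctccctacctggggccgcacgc
2p24 block, chr2:16201912-16202211: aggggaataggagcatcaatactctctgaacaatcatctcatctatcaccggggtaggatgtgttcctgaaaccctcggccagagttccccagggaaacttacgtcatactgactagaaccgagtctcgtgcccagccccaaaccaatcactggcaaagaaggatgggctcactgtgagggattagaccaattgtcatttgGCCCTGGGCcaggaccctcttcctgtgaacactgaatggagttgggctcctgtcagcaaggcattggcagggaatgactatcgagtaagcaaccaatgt
The HAND2 window held CATCTG on both strands and AGATAA, the ISL1 window AGATAA and CACGTG, and the GATA3 window AGATAA and TGANTCA. HAND2 is the nearest gene of no distal site, so its site was taken within 100 kb of its own start site after the values had been seen.

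Reads in sites numbered 21292613 for replicate 1, 23640795 for replicate 2 and 25188802 for replicate 3, and 79.9% to 86.2% of sites had at least 10 reads. Replicate 2 stood apart from the other two. The chi-square statistic per degree of freedom was 1.09 between replicates 1 and 3, against 1.73 and 1.94 for the pairs with replicate 2, so that each pair differed by more than counting noise and all 3 were counted separately. The median log2 ratio of replicate 2 to the mean of the other two was -0.11 at promoter sites and 0.11 at intergenic sites, and its part in other results was looked at by leaving replicate 2 out. The common biological coefficient of variation was 0.101. Accessibility is given as CPM, the reads of a site divided by the reads in all sites of that library and multiplied by 1000000, and as CPM per kb of site length where sites of different length are compared.

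Most sites were weak, and a large share of the signal was in few of them. The median site was 760 bases long and held 0.997 CPM. The top 5% of sites, called strong here, were 18395 sites from 10.043 CPM upwards, with the next site at 10.042 CPM. They held 46.4%, 45.3% and 45.8% of the reads in the 3 libraries. Of the strong sites, 90.8% were also in the top 5% of each library taken alone. Their median coefficient of variation over the 3 libraries was 7.23%, against 19.0% for all sites.

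Promoters were the most accessible class. The annotation put 12403 sites (3.37%) in the promoter class, and they held 20.6%, 20.0% and 20.4% of the reads. Their median was 10.7 CPM or 6.36 CPM per kb, and 51.8% of them were strong. Intergenic sites numbered 179913 and intronic sites 158082, with medians of 0.912 and 1.01 CPM, of which 2.06% and 3.65% were strong. Exonic sites, 12766 in number, had a median of 1.46 CPM and 17.4% of them were strong. Distal sites, defined as more than 2500 bases from the nearest transcription start site (TSS), made up 93.6% of all sites and 48.2% of the strong ones (8875 sites). The 2 annotations overlap, since 725 strong sites were both distal to the nearest listed gene and in the promoter class of another transcript.

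**Figure D1:**
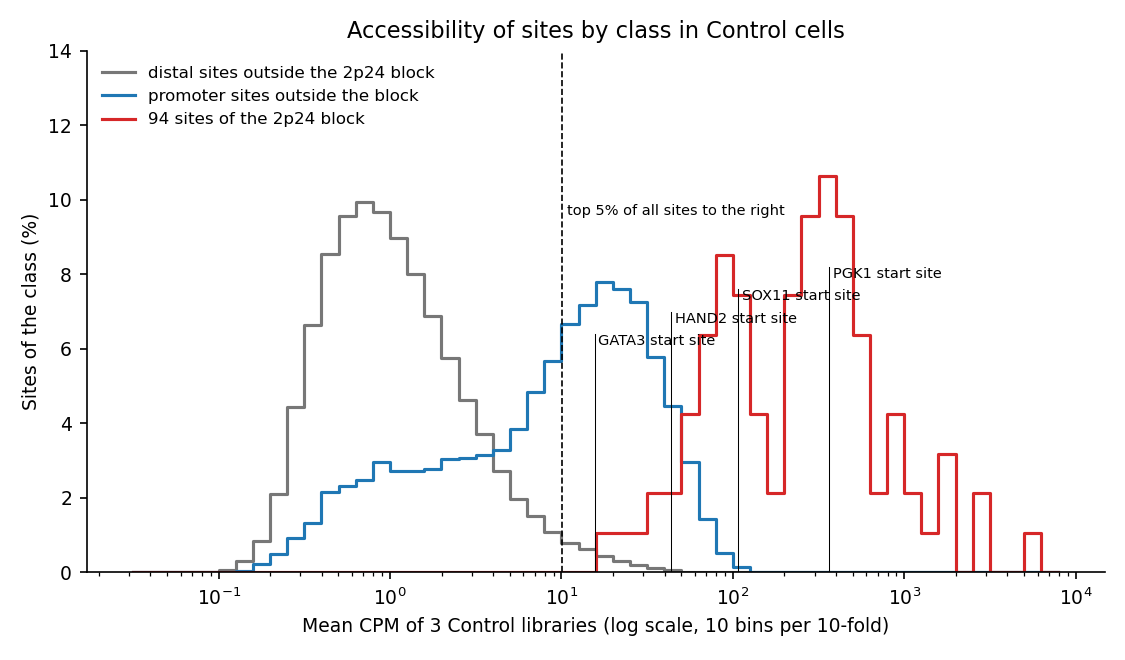
Percent of the sites of each class (vertical axis) by mean CPM of the 3 Control libraries (horizontal log axis) for distal sites, promoter sites and the 94 sites of the 2p24 block, with a dashed line at the strong threshold of 10.043 CPM. Distal sites peaked near the median of 0.948 CPM, promoter sites had a second shoulder at low CPM, and all block sites lay above the threshold; thin lines mark the start sites of GATA3, HAND2, SOX11 and PGK1.

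The MYCN locus on 2p24 dominated the data. MYCN encodes a MYC-family transcription factor, and its amplification marks high-risk neuroblastoma. Over chr2:15939562-16420755, a span of 481 kb, all 94 consecutive sites had at least 10 times the genome median of 1.35 CPM per kb (the median over autosomal sites outside promoters). The next longest run of such sites in the genome had 5 members. The block held 0.0256% of all sites but 4.56%, 3.86% and 4.59% of the reads in replicates 1, 2 and 3. Of the 50 strongest sites in the genome, 49 lay in it. Its median outside promoters was 69.9, 57.4 and 70.8 times the genome median in the 3 libraries, so replicate 2 was lowest and replicates 1 and 3 lay close together. MYCN was the single protein-coding gene of GENCODE in the block, next to its antisense gene MYCNOS, the long non-coding RNA GACAT3 and 11 other non-coding or pseudogene entries.

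The edges of the block were sharp. The last site to the left of it, 10373 bases away, held 2.50 ± 0.203 CPM (SD, n = 3) or 1.44 CPM per kb. The first site to the right, 5101 bases away, held 1.09 ± 0.411 CPM or 4.30 CPM per kb, and the third held 1.09 CPM per kb. Inside, the lowest site had 45.1 CPM per kb, and 83 of the 94 sites lay within 2 times of the block median of 88.5 CPM per kb in either direction. Sites covered 61.6% of the block, and the longest gap between them was 6.44 kb. The number of DNA copies and the accessibility of each copy both raise the reads of a site, and they cannot be told apart in these counts.

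Against that raised floor, 8 sites stood more than 3 times above the block median. The site over the start of MYCN and MYCNOS (chr2:15939562-15944082) held 5614, 4796 and 5601 CPM in the 3 libraries, with a mean of 5337 ± 468 CPM, and was the strongest site of all. At 1180 CPM per kb it was 13.3 times the block median. The site with the highest CPM per kb in the genome was intergenic, 262 kb from the MYCN start (chr2:16201354-16202769), with 2895, 2442 and 2727 CPM. Its 1898 CPM per kb were 21.5 times the block median. A neighbour 258 kb from the MYCN start (chr2:16197370-16199167) held 1965 ± 176 CPM or 1093 CPM per kb. The others were 154 kb from the MYCN start with 594 CPM per kb, 285 kb with 528, 453 kb with 484, 240 kb with 461 and 43.7 kb with 367. In each of these 8 sites replicate 2 was the lowest library. The plot of sites around MYCN shows the floor, the peaks above it and the fall at both edges.

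**Figure D2:**
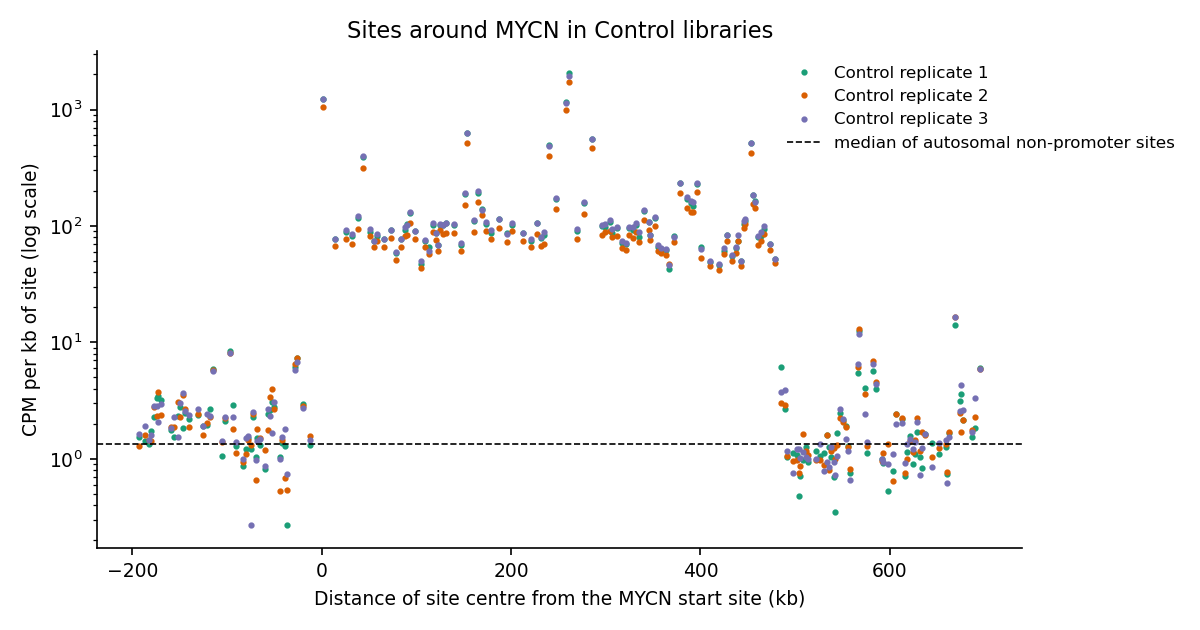
CPM per kb of each site (vertical log axis) against the distance of its centre from the MYCN start site in kb (horizontal axis), with 1 point for each of the 3 Control libraries and a dashed line at the genome median of 1.35 CPM per kb. All sites of the block lay at 45.1 CPM per kb or more in the mean, replicate 2 lay lowest at the 8 highest sites, and the sites next to the block on both sides lay at 1.44 and 4.30 CPM per kb.

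The distal sites that the annotation assigns to MYCN itself all lay outside the block, on its left. There were 24 within 100 kb, 3 of them strong, with a summed 86.6 ± 1.47 CPM. The strongest (chr2:15841893-15844585, at -97.3 kb from the MYCN start) held 22.8, 21.7 and 21.6 CPM, so the 3 libraries lay close together. Sites in the block carried the names MYCNOS and LOC101928129 as nearest genes. Within 100 kb of the MYCN start site on either side, whatever the nearest gene, 40 distal sites summed to 6778 ± 635 CPM.

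Outside the block, the strongest promoter site belonged to PGK1, a glycolytic enzyme gene. The site (chrX:78103819-78104318, 500 bases) held 380, 398 and 315 CPM, with a mean of 364 ± 43.7 CPM, and ranked 35 among all sites. Its 729 CPM per kb were far above its neighbours, at 1.96 CPM per kb on the left and 1.47 on the right. It was 2.52 times the next promoter site outside the block. The cells had been transduced with lentiviral plasmids, and whether these carry a copy of the PGK1 promoter is not given in the sources used here. Reads from such a copy could not be told apart from reads of the gene's own start, so that the value is uncertain, and its cause was not tested. A pair of short sites at the start of chromosome 1 also had high CPM per kb, and both overlap annotated pseudogenes of mitochondrial genes. The site over MTATP6P1 (chr1:633901-634222) held 222, 281 and 187 CPM, and the one over MTND2P28 (chr1:629687-630027) held 91.5, 133 and 79.1 CPM. Reads from near-identical mitochondrial DNA can be placed there, so these 2 values are uncertain, and both were highest in replicate 2.

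The next promoter sites lay close together in value. The site shared by FAM76B and CEP57 on chromosome 11 held 142, 153 and 139 CPM, and that of AASDHPPT, which activates acyl carrier proteins, held 138, 156 and 124 CPM. Another 5 named by rank ranged from 133 CPM for LINC00167 to 110 CPM for GOLIM4, a Golgi protein, by way of LOC100652758, GSK3B and DCUN1D4. GSK3B, a kinase of WNT signalling, had 118 ± 11.1 CPM. All 7 of these sites were highest in replicate 2. Of the 100 strongest promoter sites, 17 were on chromosome 11, which is 2.20% of its 771 promoter sites, and 13 were on chromosome 4, which is 2.23% of its 582. The share was at most 1.42% on the other autosomes, and none of the 100 was on chromosomes 15 to 20 or 22.

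The strongest distal sites outside the block included those near CDON and KLF9 and a few near centromeres. CDON is a cell surface receptor that binds Hedgehog ligands, and the site 50.5 kb upstream of it (chr11:126111336-126116337) held 155, 151 and 148 CPM, which was the highest distal value outside 2p24. KLF9 is a hormone-responsive zinc finger factor, and the site 5.06 kb upstream of it (chr9:70418209-70421221) held 101, 115 and 99.1 CPM. An intronic site assigned to PTP4A1, a phosphatase (chr6:63571742-63574546), held 95.4 ± 10.4 CPM, and it lies 0.672 kb from the start of another protein-coding gene of GENCODE. A site listed for LOC101926886 (chr3:115146095-115148294) held 92.9 ± 9.37 CPM, and its centre was 0.098 kb from a ZBTB20 start site, so it is distal only by the annotated gene. The site of LOC101929043 on chromosome 11 held 99.6 ± 14.4 CPM. Sites of LOC100132249 on chromosome 9, EMBP1 on chromosome 1 and ANKRD26P1 on chromosome 16 held 141 ± 1.36, 117 ± 18.0 and 92.6 ± 15.9 CPM. The last 2 lie near centromeres and were highest in replicate 2. The LOC100132249 site lay 1470 kb from the nearest protein-coding start site, and the segment from 50 to 60 Mb before it held no site. Whether reads of repeated sequence were placed at the LOC100132249, EMBP1 and ANKRD26P1 sites was not tested.

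By CPM per kb other distal sites led. Beyond the EMBP1 site at 63.9 CPM per kb, they were those of LOC100506236 with 58.1 CPM per kb, FLJ20518 with 56.2, TMEM18 with 56.1, MIR4735 with 53.3, HNRNPD with 51.3, ZNF648 with 48.5 and C11orf52 with 47.0. The FLJ20518 site (chr20:29444848-29445917) lay 1812 kb from the nearest protein-coding start site. Whether reads of repeated sequence were placed at the FLJ20518 site was not tested. The TMEM18 site (chr2:739901-741112) is intergenic, 63.1 kb upstream of that gene, and held 70.5, 70.1 and 63.4 CPM. The sites of MIR4735 and C11orf52 lie 0.366 kb from a KCNT2 start and 0.075 kb from a DIXDC1 start, both protein-coding genes. These 2 sites are therefore distal only to the gene they are listed for.

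Strong distal sites were joined into clusters where the gap between neighbours was at most 12.5 kb. This gave 852 clusters, which held 2018 or 22.7% of the strong distal sites. Of them, 689 had 2 sites, 120 had 3 sites and 28 had 4 sites. Outside the 2p24 block, 14 clusters had 5 sites or more, and the median cluster spanned 11.5 kb with a summed 37.2 CPM. The 2p24 cluster had 92 sites and 38472, 32648 and 38824 summed CPM.

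The cluster with the next largest sum lay in and beside IGSF9B, which encodes an adhesion molecule of inhibitory synapses (chr11:133934483-133968826). Its 5 sites summed to 232, 231 and 234 CPM, so the 3 libraries were nearly equal. The cluster upstream of CDON had 2 sites with 187 ± 3.45 CPM. A cluster of 6 sites at KCNH2, a potassium channel gene (chr7:150941826-150975330), summed to 158 ± 8.28 CPM. Another 6 sites lay near C14orf166B, 97.7 kb from the IRF2BPL start site, with 144 ± 7.12 CPM, and 6 more at FAM163A, a gene first described in neuroblastoma, with 137 ± 11.7 CPM. The clusters of C2orf61 with 131 ± 9.79 CPM and HS1BP3 with 122 ± 4.95 CPM, both on chromosome 2, also had 5 or 6 sites. The pericentromeric clusters of ANKRD26P1 and EMBP1 had 2 sites each, with 178 ± 28.0 and 140 ± 21.4 CPM, and were highest in replicate 2. Beyond the 10 largest, a cluster of 5 sites with 80.8 CPM carries the name MIR5100 (chr10:42960418-42992934). The nearest protein-coding start site to its centre is that of RET, the GDNF co-receptor kinase. These sites are not among those listed for RET by nearest gene.

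Sites were then counted by nearest gene. Of 23526 genes with a distal site within 100 kb, the median gene had 6 such sites and a summed 10.5 CPM, and 1 gene in 10 had at least 24 sites or 50.3 CPM. Among the genes with the most sites, ZC3H12C had 62 with 140 ± 14.1 CPM. RP11-946L20.2, AC107070.1, FLJ41481, SNORA70C, VIT, FAM84A and a non-coding gene on chromosome 17, had 61 to 65 sites each and between 68.1 and 265 summed CPM. Of these 8 genes, 4 had no strong site and 4 had at least 1. Over protein-coding genes that are the nearest gene of any site, 17.7% had a strong one. The 2 shares are not alike, since these genes were ranked by their number of sites and not all are protein-coding. Each further site gives a further chance of a strong one, and 2.58% of all distal sites were strong. The non-coding gene on chromosome 17 had 6 strong sites, SNORA70C 4, ZC3H12C 2 and VIT 1.

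The largest sums, apart from LOC101928129 and MYCNOS in the block with 7520 ± 648 and 6692 ± 634 CPM, belonged to CDON with 315 ± 6.30 CPM in 32 sites. LOC101928351, in the SCHIP1 region, had 289 ± 13.6 CPM in 40 sites, 8 of them strong. GLI2, the main transcriptional effector of Hedgehog signalling, had 277 ± 26.9 CPM in 55 sites, 9 of them strong, with 297, 246 and 287 CPM in the 3 libraries. SDC1, a cell surface proteoglycan, had 261 ± 6.16 CPM in 31 sites. AC011747.7, beside ID2, an inhibitor of basic helix-loop-helix factors, had 266 ± 11.7 CPM in 50 sites. The same gene on chromosome 17, LOC102723401 and LOC101928921 followed with 265, 262 and 257 CPM. Without genes that have a site in the block, IGSF9B joined them with 253 ± 4.22 CPM in only 8 sites, 6 of them strong. Sites of CDON and AC011747.7 lay in 10 Mb segments with 860 and 861 CPM per Mb, and those of LOC101928351 in one with 477. The median segment had 329 CPM per Mb. How far these sums reflect their region was not tested.

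The adrenergic markers given for this cell type had open start sites and open distal sites. The start site of HAND2, a basic helix-loop-helix factor of sympathetic neurons (chr4:173528469-173531775), held 45.8, 44.1 and 41.6 CPM, with a mean of 43.8 ± 2.15 CPM. The strongest distal site near it (chr4:173521272-173523423, 7.88 kb downstream of the start, listed for LOC101928439) held 47.4, 52.2 and 47.0 CPM. The printed HAND2 window, with CATCTG on both strands and AGATAA, comes from this site. In all, 35 distal sites within 100 kb of the HAND2 start summed to 207 ± 6.04 CPM, and 6 of them were strong.

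GATA3, a zinc finger factor of sympathetic differentiation, had a site in its first kilobase (chr10:8044902-8046969) with 16.4, 15.8 and 14.7 CPM. The strongest distal site assigned to it by nearest gene (chr10:8047791-8048438) held only 8.50, 7.74 and 7.34 CPM and was not strong. Stronger sites stood under the name of its antisense gene GATA3-AS1, with 34.2 ± 2.04 CPM at the GATA3-AS1 promoter (chr10:8053257-8054870) and 24.2 ± 1.5 CPM beside it (chr10:8051199-8052294). Within 100 kb of the GATA3 start, 34 distal sites summed to 92.7 ± 4.35 CPM, 2 of them strong, the stronger with 17.3 ± 1.01 CPM at 71.7 kb.

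ISL1, a LIM homeobox factor, was flanked by strong sites. The promoter-class site at its start (chr5:51382644-51383968), which carries the name LOC642366, held 35.4, 36.0 and 33.6 CPM. The distal site at -5.45 kb from the start (chr5:51376699-51379299), whose centre is printed above, held 23.7, 24.03 and 22.6 CPM. Another, 5.46 kb downstream (chr5:51387312-51390513), held 30.9, 27.3 and 31.1 CPM. The SD was at most 2.11 CPM at these ISL1 sites.

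Across the 22 adrenergic transcription factor genes of a fixed list, 15 had at least 1 strong distal site by nearest gene within 100 kb, against 17.7% of the 16575 protein-coding genes that are the nearest gene of any site. Without replicate 2 the number was 13. The list's median sum was 45.5 CPM, and the median percentile of its 21 members with a distal site was 91.9 among all genes with such a site. By all distal sites within 100 kb of a gene's own GENCODE start site, 20 of 22 had a strong site, against 41.2% of 20007 protein-coding genes. On that count the list's median sum was 102 CPM, and the median over all protein-coding genes was 35.2 CPM. The median number of distal sites was 30 in the list and 17 over all protein-coding genes. Both the sum and the chance of a strong site grow with that number, and its part in the difference was not tested. The list was chosen with earlier results of these cells known, so that these shares are descriptions and no test was made.

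Among the members, LMO1, a LIM-only cofactor and neuroblastoma risk gene, had 6 strong distal sites and a sum of 177, 166 and 176 CPM. KLF13, a Krüppel-like factor, also had 6, with 141 ± 15.2 CPM, lowest in replicate 2. HAND1, the relative of HAND2, had a distal site of 62.7, 71.0 and 57.7 CPM at -7.87 kb (chr5:154484334-154487821), the strongest by nearest gene in the list. SOX11, a neural progenitor factor, had the strongest start site of the list after MYCN, with 107 ± 9.59 CPM, and a distal site of 49.2 ± 3.96 CPM. PHOX2A, a homeobox factor, had 3 strong distal sites and 106 ± 12.4 CPM, with a strongest site of 34.1 ± 2.69 CPM in an intron (chr11:72308156-72309988). TFAP2B, an AP-2 factor, had 3 strong sites with 90.9 ± 5.57 CPM in all. INSM1 and EYA1 had 2 each, with 80.0 ± 4.65 and 71.7 ± 1.11 CPM. TBX2 and GATA2 had 1 each, of 25.3 ± 2.32 and 13.5 ± 1.62 CPM. The PHOX2A site named here lies in a 10 Mb segment with 641 CPM per Mb and the TBX2 site in one with 316. The median segment had 329 CPM per Mb. How far the values of single members of this and the later lists reflect their region was not tested.

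KLF7, SIX3, PBX3, DACH1, ZNF536 and GATA3 had no strong distal site by nearest gene. By their own start sites KLF7 had 2 strong sites with 112 ± 3.87 CPM, ZNF536 had 2 with 101 ± 4.89 CPM, GATA3 had 2 and SIX3 had 1. PBX3 and DACH1 were without a strong distal site on both counts. DACH1, a corepressor, was the lowest, with 7 distal sites and 10.8 ± 2.18 CPM, while PBX3, a homeobox cofactor, had an open start site of 28.9 ± 2.41 CPM but 13.0 ± 0.983 CPM of distal signal. ZNF536 had the weakest start site of the list, at 0.957 ± 0.0985 CPM, beside 36 distal sites with 58.2 ± 5.57 CPM. The adrenergic list was therefore mixed in its distal signal, from 10.8 CPM to the 173 CPM of LMO1 by nearest gene, with HAND2 at 0 for want of an assigned site.

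Mesenchymal transcription factor genes were mixed at their start sites, and fewer of them than of the adrenergic genes had a strong distal site. Of the 22 genes, 7 had a strong distal site by nearest gene (background 17.7%), and 13 by their own start sites (background 41.2%). The median sums were 16.6 and 57.0 CPM, and the median percentile by nearest gene was 61.2. By own start sites the median number of distal sites was 25, against 17 over all protein-coding genes. Start sites were counted by nearest gene, as a site within 1000 bases of the start under the gene's own name. Of 17 members with such a site, 13 were strong there, as were 13 of 16 adrenergic members. The sites at the ISL1 and MYCN starts carry other names and are not among the 16. Strong sites were common among promoters in general, at 51.8% of all promoter-class sites.

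TWIST1, a basic helix-loop-helix factor of neural crest migration, had the strongest distal site of the list, with 40.3, 43.2 and 43.0 CPM in an intron listed 9.85 kb from its start (chr7:19106279-19108819), and a start site of 41.1 ± 2.72 CPM. FOSL2, an AP-1 member, had a distal site of 26.9 ± 3.41 CPM. TBX18, ID1, IRF1 and WWTR1 had 1 strong distal site each, of 14.2 to 21.03 CPM. SNAI2, the SLUG repressor, and YAP1, the Hippo effector, had no strong distal site, but many weaker ones, with 39 sites and 70.7 ± 2.40 CPM and 45 sites and 82.9 ± 10.6 CPM. PRRX1, the factor most tied to the mesenchymal state, had 37 distal sites of at most 4.42 CPM, with 51.6 ± 7.14 CPM in all. It had no site of its own name within 1000 bases of its start. RUNX1 and RUNX2 had nearly closed start sites at 0.795 ± 0.162 and 0.821 ± 0.225 CPM. MEOX1 was as low, at 0.777 ± 0.129 CPM, while JUN, another AP-1 member, had 36.5 ± 0.820 CPM at its start and no strong distal site.

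**Figure D3:**
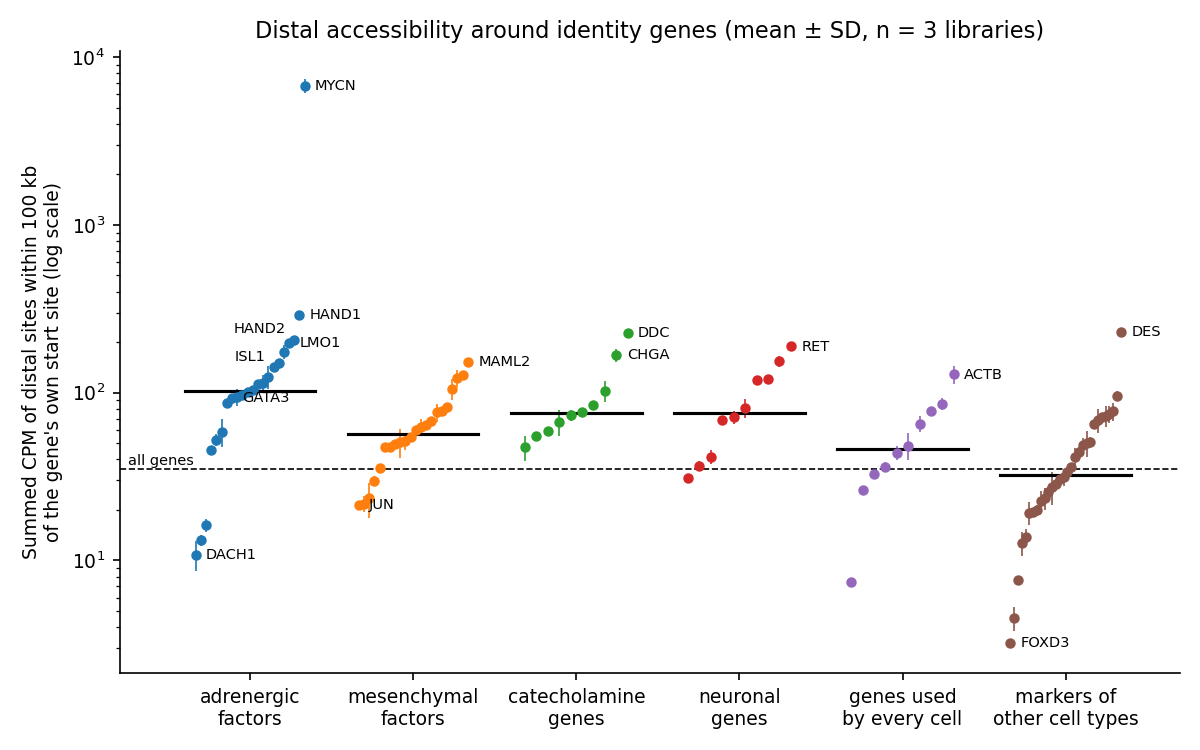
Summed CPM of all distal sites within 100 kb of each gene's own start site (vertical log axis) for the genes of each list (horizontal axis), as mean and SD of 3 Control libraries, with list medians as bars and the median of 20007 protein-coding genes (35.2 CPM) as a dashed line. The adrenergic median (102 CPM) was the highest bar and MYCN (6778 CPM) the highest point, while DACH1 and FOXD3 lay lowest in their lists.

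Genes of catecholamine synthesis and storage, the products of adrenergic cells, were open to different degrees. DDC, the decarboxylase that makes dopamine, had 31 distal sites with 106, 111 and 108 CPM, and 2 of them were strong. CHGA, a chromaffin granule protein, had 5 strong distal sites and 102 ± 8.08 CPM, and SLC6A2, the noradrenaline transporter, had 2 with 52.9 ± 2.64 CPM. TH, the rate-limiting enzyme of the pathway, had a weak start site of 2.42 ± 0.330 CPM and no distal site of its own name, although 30 distal sites within 100 kb of its start summed to 102 ± 14.6 CPM. DBH, which makes noradrenaline, had 10.3 ± 1.19 CPM at its start and 6.07 ± 1.44 CPM of distal signal. By nearest gene 3 of 10 had a strong distal site (background 17.7%), and by their own start sites 9 of 10 (background 41.2%). On the second count the median number of distal sites was 26, against 17 over all protein-coding genes.

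Of the 10 neuronal and neurotrophic genes, 6 had a strong distal site by nearest gene (background 17.7%). By their own start sites 8 had one (background 41.2%), with a median of 25 distal sites against 17 over all protein-coding genes. GAP43, a growth cone protein, had 4 strong distal sites and 121 ± 4.61 CPM, SCG2, a secretory granule protein, had 4 with 120 ± 3.99 CPM, and RET had 5 with 107 ± 6.89 CPM. STMN2, a tubulin regulator of axons, had a single strong distal site of 43.4, 42.3 and 42.3 CPM. ALK, the receptor kinase mutated in familial neuroblastoma, had an open start site of 31.7 ± 3.35 CPM and 29 distal sites, none strong, with 41.6 ± 3.99 CPM.

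Genes used by every cell had open start sites. All 7 with a site of their own name within 1000 bases of the start were strong there, against 51.8% of all promoter-class sites. The values ranged from 16.8 CPM for HPRT1 to 78.9 CPM for EEF1A1, beside the uncertain 364 CPM of PGK1. The distal signal of these genes differed between the 2 ways of counting. By nearest gene only ACTB had a strong distal site (1 of 10 genes, background 17.7%), and the median distal sum was 5.96 CPM. By their own start sites 7 of 10 had one (background 41.2%). The median sum was 46.1 CPM, above the 35.2 CPM of all protein-coding genes, with a median of 20.5 distal sites against 17.

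Markers of other cell types had weaker start sites than most promoters, but were not closed. There were 30 such genes, 5 each of blood, epithelium, liver, skeletal muscle, endothelium and Schwann cells. Of these, 13 had a site of their own name within 1000 bases of the start. These sites had a median of 6.39 CPM against 10.7 CPM for all promoter sites. Of these 13 sites 4 were strong, against 51.8% of all promoter-class sites. They were those of FOXA2 with 11.4 ± 0.463 CPM, MYOD1 with 12.7 ± 1.33 CPM, KDR with 11.7 ± 0.798 CPM and ERBB3 with 16.1 ± 2.12 CPM. The lowest was TP63, an epithelial factor, at 0.529 ± 0.209 CPM. None of the 5 blood genes had such a site, and GATA1 and SOX10, the defining factors of red cell precursors and Schwann cells, were the nearest gene of no site at all. By nearest gene, PTPRC, a surface phosphatase of white blood cells, had a strong distal site of 11.4 ± 1.26 CPM. By nearest gene, the summed distal signal of the 5 genes of a list had medians from 0.179 CPM for liver to 31.3 CPM for endothelium. By the genes' own start sites the order was another, with medians from 22.7 CPM for liver to 68.9 CPM for skeletal muscle, which was above the 57.0 CPM of the mesenchymal list. On that count 9 of the 30 genes had a strong distal site (background 41.2%), and 3 of these were among the 5 muscle genes. The median number of distal sites ranged from 13 for Schwann cells to 28 for skeletal muscle and endothelium. DES, a muscle filament gene, had 232 ± 8.92 CPM within 100 kb of its start but 5.55 ± 1.26 CPM by nearest gene, so the sites near it carry the names of other genes. Accessibility is not expression, and in bulk libraries a low level in every cell cannot be told apart from a high level in a few.

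The letters in the central 300 bases were compared between strong distal sites (8847 windows), all distal sites (343866) and promoter sites (12391). Strong distal sites differed from promoters in composition, with a median GC content of 49.7% against 63.7%, and lay near all distal sites at 46.3%. AGATAA was in 17.6% of strong distal windows, 17.6% of all distal and 6.72% of promoter windows. CATCTG was in 23.9%, 23.5% and 12.6%. The PHOX2-type letters AATNNAATT were in 8.74%, 6.62% and 2.14%. GCCNNNGGC, of the AP-2 type, was in 18.5%, 8.51% and 30.2%, the CTCF letters AGGGGGCG in 3.59%, 0.766% and 9.26%, and the ETS letters CCGGAAG in 3.09%, 1.15% and 9.93%. TGANTCA was in 10.5%, 11.2% and 5.49%, ACATTCC of TEAD factors in 3.50%, 4.37% and 2.41%, CACGTG in 4.83%, 4.02% and 6.90%, and the general E-box CANNTG, which includes CATCTG and CACGTG, in 76.5%, 82.8% and 65.1%. Over all GC contents, AP-2, CTCF and ETS letters were thus more frequent in strong than in all distal windows. Of the 8875 strong distal sites, 725 are in the promoter class of another transcript, against 1926 of all 344315 distal sites. Windows of strong promoter sites held AP-2, CTCF and ETS letters in 37.1%, 12.6% and 13.9%. How far such promoter sites account for the higher shares was not tested. The higher shares of CTCF and ETS letters did not hold in every bin of GC content. Nor did the lower shares of TEAD and AP-1 letters, as given next.

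Since GC content changes the chance of any letters, the shares were also set side by side within bins of GC content, an alternative chosen after the data had been seen. At 30% to 40% GC, AATNNAATT was in 22.5% of 1699 strong distal windows and in 15.9% of 64840 other distal windows. At 40% to 45% GC the shares were 13.0% and 7.58%, and at 45% to 50% GC 8.27% and 3.85%. AGATAA went from 30.4% in other to 34.7% in strong windows at 30% to 40% GC, from 22.6% to 27.8% at 40% to 45% and from 15.9% to 20.8% at 45% to 50%. CATCTG went from 20.5% to 26.3%, from 24.3% to 28.7% and from 24.9% to 29.5% in the same bins. At 50% to 55% and 55% to 65% GC all 3 were again higher in strong windows, though CATCTG by little in the last bin, with 25.04% against 24.6%. The letters of GATA, PHOX2 and HAND factors were thus each more frequent in strong distal windows in the 5 bins. Windows below 30% or from 65% GC upwards were not compared. They make up a larger part of the strong than of the other distal windows. TEAD letters were less frequent in strong windows in the 3 bins up to 50% GC, with 4.00% in strong and 4.71% in other windows at 30% to 40%, 4.45% and 5.09% at 40% to 45%, and 3.98% and 4.77% at 45% to 50%. They were slightly more frequent in the other two, with 4.14% and 4.01% at 50% to 55% and 3.38% and 3.23% at 55% to 65%. AP-1 letters were more frequent in strong windows in 4 of the 5 bins, by the widest margin at 50% to 55% GC, with 13.1% against 9.42%. They were less frequent at 45% to 50% GC, with 11.1% against 12.5%. The lower AP-1 share over all GC contents therefore turned to a higher one in most bins. AP-2 letters were more frequent in strong windows in each bin, with 3.00% against 2.24% at 30% to 40% GC and 25.4% against 19.7% at 55% to 65%. CTCF letters were less frequent in strong windows at 30% to 40% GC, with 0% against 0.110%, as were ETS letters, with 0.235% against 0.275%. Both were more frequent in the other bins, with 3.72% against 1.87% for CTCF letters at 55% to 65% GC. These are matches of letters, and no binding was measured.

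**Figure D4:**
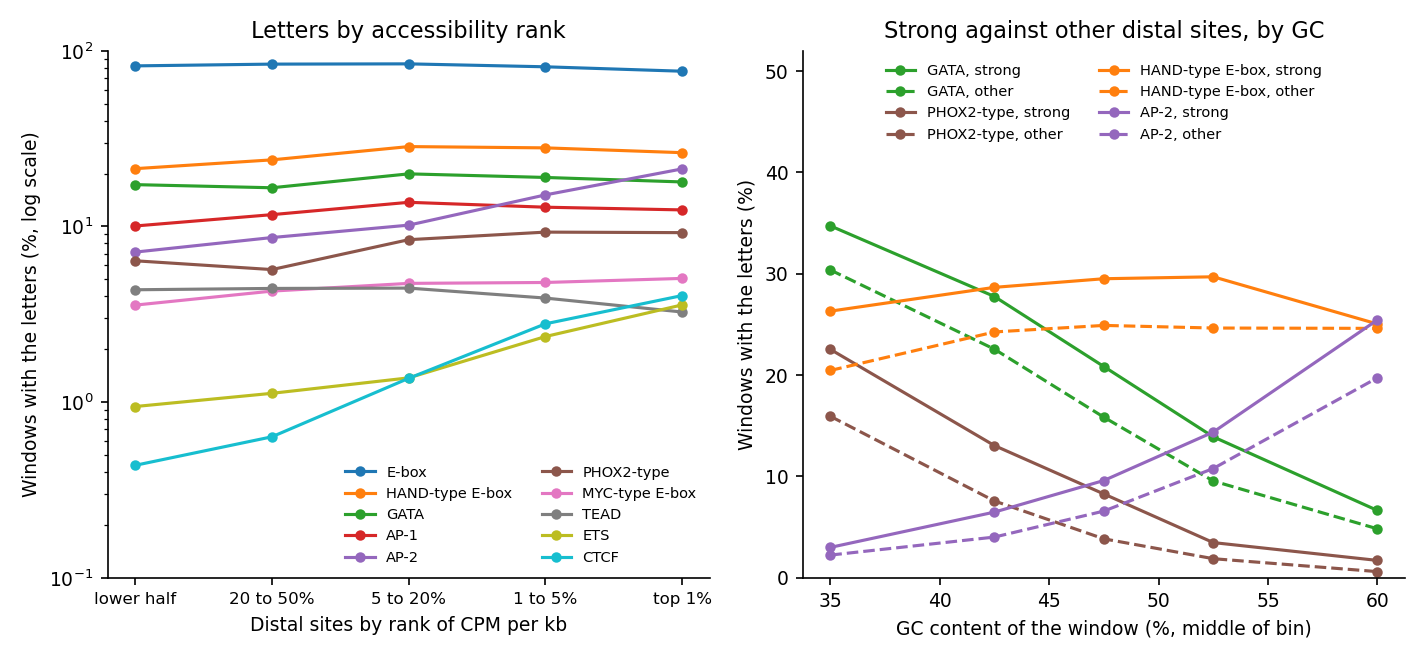
Percent of 300-base windows with each of the 10 sets of letters, on the left (log axis) by rank of the distal site's CPM per kb and on the right by GC content of the window for strong distal sites (solid lines) and other distal sites (dashed lines). CTCF letters rose from 0.437% in the least accessible to 4.04% in the most accessible group and AP-2 letters from 7.14% to 21.3%, while the solid lines for GATA and PHOX2-type letters lay above the dashed ones in every GC bin shown.

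Ranked by CPM per kb, the most accessible 1% of distal sites had CTCF letters in 4.04% of windows and AP-2 letters in 21.3%, against 0.437% and 7.14% in the least accessible 50%. PHOX2-type letters went from 6.38% to 9.22% and CATCTG from 21.3% to 26.3% between the same groups. The median GC content went from 45.3% in the least accessible to 50.7% in the top group. AGATAA was highest in the 5% to 20% group, at 19.9%, and had 17.9% in the top group. TGANTCA was likewise highest in that group, at 13.7%, with 12.4% in the top and 10.1% in the least accessible group.

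Site density changed in steps along the chromosomes. Chromosome 18 had 30.3 sites per Mb and 85.1 ± 0.688 CPM per Mb, the lowest of the 22 autosomes, and chromosome 11 had 186 sites per Mb and 564 ± 2.15 CPM per Mb, the highest. Chromosome 4 had 177 sites per Mb and chromosome 2 had 172, with 376 ± 18.1 and, without the 2p24 block, 450 ± 7.08 CPM per Mb. Chromosomes 22, 13 and 21 had 53.8, 58.6 and 63.6 sites per Mb over their full length. The first 10 Mb of chromosomes 13 and 22 held no site, and that of chromosome 21 had 12.7 sites per Mb, which lowers these values. The SD over libraries was at most 26.2 CPM per Mb, on chromosome 19.

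In segments of 10 Mb, the first 100 Mb of chromosome 1 had 41.8 to 66.8 sites per Mb, and the segment from 100 to 110 Mb had 135. The segments of 1q from 150 Mb to 190 Mb had 142 to 220 sites per Mb. The first 60 Mb of chromosome 3 had 32.5 to 43.4 sites per Mb, and the next segment had 122.8, with 115 to 209 sites per Mb in all later full segments. On chromosome 11 the segments from 80 to 110 Mb had 265 to 285 sites per Mb, and the highest CPM per Mb was at 120 to 130 Mb, with 860 CPM per Mb. The first 40 Mb of chromosome 2, without the block, had 696 to 861 CPM per Mb. Over all 278 segments, those without a site included, the median was 129 sites per Mb and 329 CPM per Mb.

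**Figure D5:**
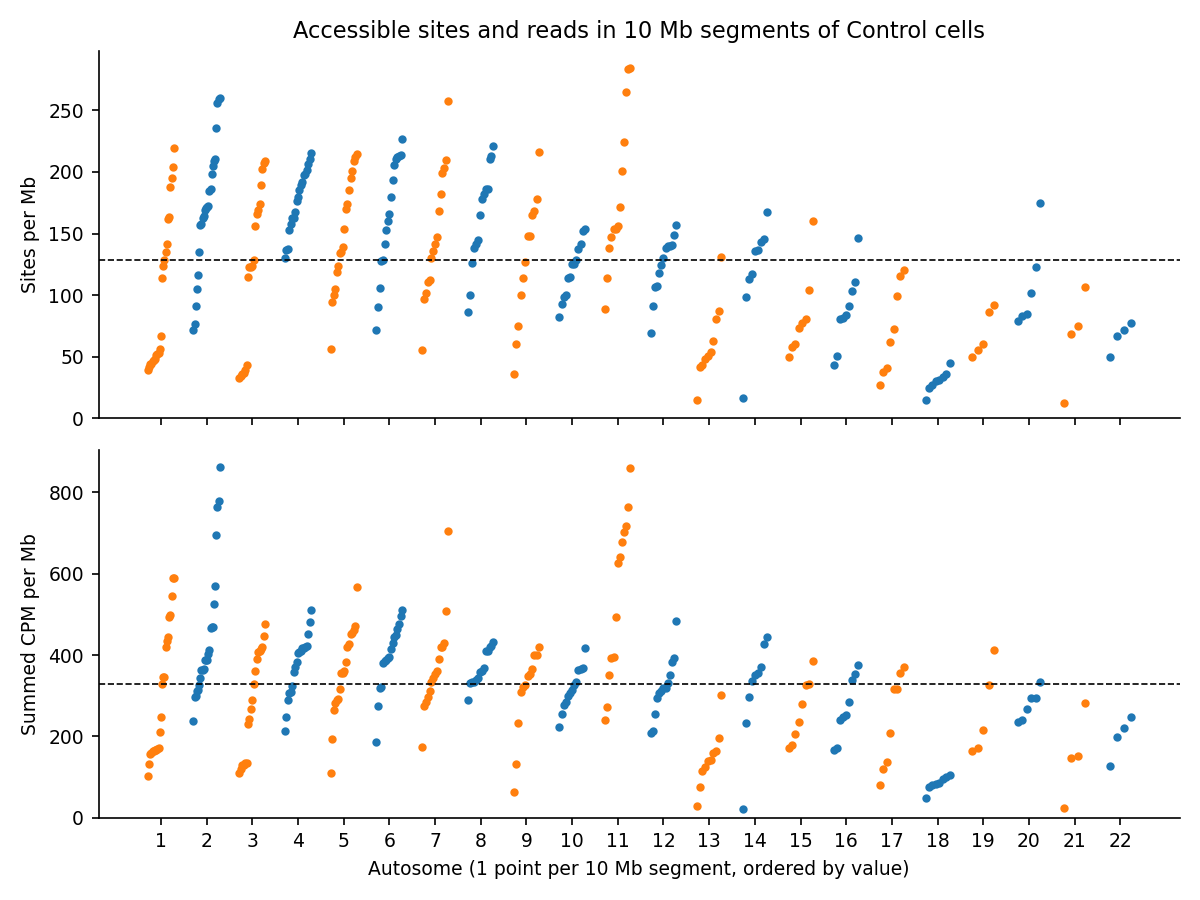
Sites per Mb (upper panel) and summed mean CPM per Mb (lower panel) of Control cells in 10 Mb segments of each autosome, 1 point per segment with at least 20 sites, ordered by value within the autosome, with the median of all segments as a dashed line. Chromosomes 1 and 3 each split into a low and a high group of segments, chromosome 18 lay low throughout, and the highest points were on chromosomes 2 and 11.

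The median CPM per kb of non-promoter sites ran the other way. It was lowest on chromosomes 8, 9 and 4, at 1.28, 1.30 and 1.30 CPM per kb, and highest on chromosomes 18, 19 and 17, at 1.87, 1.68 and 1.61 CPM per kb, where sites were sparse. Over the 22 autosomes the rank correlation of this median with sites per Mb was -0.632, given as a description since both come from the same libraries and site set. By windows of 1 Mb, the highest medians were at 57 to 58 Mb, 44 to 45 Mb and 12 to 13 Mb of chromosome 19, with 2.97, 2.47 and 2.44 times the genome median, and at 28 to 29 Mb and 52 to 53 Mb of chromosome 1, with 2.55 and 2.43 times. These 5 windows had 15 to 52 protein-coding start sites and 21 to 60 non-promoter sites each, with promoter sites not counted. The window of the MYCN start, 15 to 16 Mb of chromosome 2, had 1.22 times the genome median and the next 1.57 times. DNA copy number and the accessibility of each copy cannot be told apart along the chromosomes either.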

How the data were processed

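Chromatin accessibility of SK-N-BE(2) cells had been measured by ATAC-seq, and the 3 Control libraries were used here. The authors deposited raw read counts per library over 1 consensus set of sites in 6 tables, whose Control columns were identical. Per the labels the genome build was GRCh38. Which aligner and peak caller were used, and whether reads were shifted for Tn5, is not given in the sources used here. Columns of normalized counts and of DESeq2 results in those tables hold the authors' comparisons between groups and were left out. The deposited HOMER annotation gave each site's class, its nearest gene and the distance to its TSS. A site need not regulate the gene it is named for.

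Counts were divided by the library total over sites (CPM), and means and SDs were taken over 3 libraries. Libraries of 21292613 to 25188802 reads leave counting error largest at weak sites. No test was made, because all members belong to 1 group. Strong sites were the top 5% by mean CPM, distal sites lay over 2500 bases from the nearest TSS, clusters joined gaps of up to 12.5 kb, and distal sums covered 100 kb. Windows of 1 Mb needed 20 non-promoter sites. Sex chromosomes were left out of the chromosome part, and unassembled contigs, with 0.269% of reads, out of the naming. All sites but 1 lay on sequences of the hg38 reference and none ran past a sequence end, and GENCODE v44 start sites were used for gene-centred windows. The dispersion and the scaling alternatives came from edgeR 4.0.16 under R 4.3.3, the rest from Python 3.11.15 with pandas 2.3.3. The scripts were tested on simulated data.

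The text names HAND2, GATA3, ISL1 and MYCN, the 10 leading distal sites, promoter sites, clusters and genes by each measure (at most 1 site per gene, sites of at least 300 bases for CPM per kb), the members of the gene lists, the 3 autosomes with the highest and the lowest median and the 5 highest windows. A few items that these rules choose are not reported here. The 2p24 block, the windows around a gene's own start and the GC bins were chosen after their values were seen. So were the cluster of MIR5100, the PGK1 and chromosome 1 values per kb and the 10 Mb segments. The members and lists were chosen with earlier results of these data known. Biological triplicates are stated by the submitters.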

Additional observations from a re-analysis of the deposited data

How the results depend on the processing

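Leaving out each replicate in turn gave 20.2% to 20.5% of reads in promoter sites, 45.6% to 46.1% in strong sites, 4.21% to 4.57% in the 2p24 block, 838 to 862 clusters, 13 to 15 adrenergic and 7 mesenchymal genes with a strong distal site, median percentiles of 91.4 to 92.6 and 60.4 to 62.9, and 1.22 to 1.23 for the MYCN window. TMM and DESeq2-type scaling changed no count.

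The choice of threshold moved more. With the top 1%, top 10% or top 5% by CPM per kb, strong sites held 20.7%, 58.7% or 43.4% of reads and formed 15, 3747 or 1294 clusters. The top 1% left 4 adrenergic genes (HAND1, LMO1, PHOX2A and SOX11) and 1 mesenchymal gene (TWIST1), and the top 10% gave 11 mesenchymal genes. Gaps of up to 5000 bases gave 418 clusters. Sites with at least 10 reads in every library gave 41.9% of reads in strong and 21.1% in promoter sites, and promoters taken as within 1000 bases of the TSS held 27.2%. Without the 2p24 block, strong sites held 43.5%.

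Mesenchymal genes with a strong distal site were 3 when distal meant over 10000 bases and 13 by their own start sites. The adrenergic median percentile was 88.9 with distal over 10000 bases, 89.1 within 50 kb, 93.6 with no limit and 90.4 relative to the 1 Mb window. The mesenchymal one was 67.4 with distal over 1000 bases, 52.2 over 10000, 58.0 within 50 kb, 58.5 with no limit, 64.5 relative to the window and 71.2 by own start sites. The window alternative divided CPM by the window's median CPM per kb, as a ratio to the genome median. It does not adjust for the number of sites in a region. The MYCN window ratio was 1.17 in 5 Mb windows, 1.30 in 500 kb windows, 1.20 over all sites and 1.16 with at least 10 reads. The causes were not tested. Of 240 recomputed values at 48 named sites, all moved by under 1 SD, which leaving out 1 of 3 libraries ensures by construction. No paired analysis was possible because the result comes from no test and a single group. The block and own-start alternatives were chosen after seeing the data.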

Other observations

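Some genes outside the fixed lists had many strong distal sites. HS6ST1, a heparan sulphate enzyme, had 8 strong distal sites with 176 ± 8.87 CPM in 34 sites, as many strong sites as LOC101928351 and RP11-148L24.1, which had 229 ± 10.04 CPM. FAM163A had 7 strong distal sites with 230 ± 11.03 CPM. Clusters of 5 strong distal sites were also found at ELK3, an ETS factor, with 107 CPM, and at SPSB4 with 103 CPM. These genes were chosen after their values had been seen.

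Unassembled contigs held 679 sites and 0.263%, 0.281% and 0.262% of reads in replicates 1, 2 and 3.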
